A study of Homo sapiens with 6 samples.

Results

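The TGF-beta pathway was described through 10 genes, TGFB1, TGFB2, TGFB3, INHBA, TGFBR1, TGFBR2, BAMBI, LTBP1, SMAD7 and TGFBI. They were taken by symbol from the deposited count table, which holds 21776 genes, and all 10 were found there. The libraries came from SCC25, an established oral squamous cell carcinoma line labelled as wild type, kept for 12 h in a tri-gas incubator at 1% O2 (hypoxia) or in an air incubator (normoxia), with 3 libraries per condition. The labels do not say whether the 3 libraries of a condition came from separate cultures, so the p-values below measure the spread between these libraries, which may be technical. The count columns name the cells only as HNSCC, and the study's text names SCC9, a different oral squamous cell carcinoma line, for its pathway enrichment under hypoxia. The sample labels, which name SCC25, were followed here, and this conflict was not resolved. The total counts ran from 29637189 to 37278703 per library.

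TGF-beta ligands are secreted in a latent form, bound to a propeptide and often to a latent TGF-beta binding protein, and are set free by integrins or proteases. The free ligand brings a type II receptor (TGFBR2) together with a type I receptor (TGFBR1), which phosphorylates SMAD2 and SMAD3, and these enter the nucleus with SMAD4. Activins, dimers of the INHBA product or its relatives, use other receptors and the same SMADs. In squamous epithelia the pathway is known both for holding back growth and, in carcinomas, for promoting invasion and matrix deposition.

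The identity of the cells was examined first. Epithelial and squamous genes were present: EPCAM had 249 CPM under hypoxia and 317 under normoxia (CPM, counts scaled to the same adjusted library total), KRT5 had 111 and 126, and TP63 had 68.3 and 62.7. The 12 epithelial and squamous markers summed to 1634 to 1663 CPM under hypoxia and 1240.1 to 1313 CPM under normoxia. Of the 11 tested, 6 rose, 4 fell and 1 (TP63) did not pass by edgeR. Among all tested genes, 77.8% passed the same test, 39.2% as higher and 38.5% as lower under hypoxia, the comparison for every marker list here. CDH1, E-cadherin, rose by 1.35 on the log2 scale, TRIM29 by 1.46, DSG3 by 1.35, KRT17 by 1.06, DSC3 by 0.96 and PERP by 0.54, whereas KRT6A fell by 4.12, SFN by 0.80, EPCAM by 0.35 and KRT5 by 0.18. KRT14, a keratin of the basal layer, had 1 count in 1 library and 0 in the other 5. Summed over 15 known hypoxia response genes, the libraries labelled hypoxia had 18199.8, 20032.5 and 20506.5 CPM and those labelled normoxia had 4021, 3995 and 4838 CPM. Markers of other cell types were low but not the same in both conditions. The 9 fibroblast markers summed to 20.8 to 25.3 CPM under hypoxia and 5.00 to 8.15 CPM under normoxia, COL1A1 being the most abundant. Of the 3 tested, COL1A1 (log2-fold change 2.26) and FAP (0.61) rose and PDGFRB (0.96, edgeR adjusted p = 0.051) did not pass. LUM had 27, 9 and 8 counts under hypoxia and 1, 1 and 2 under normoxia, while COL3A1 had at most 2 counts and DCN at most 4 in any library. The 7 leukocyte markers found in the table (of 8) summed to 40.1 to 46.0 CPM and 33.7 to 37.2 CPM, with CD68, which is also expressed outside leukocytes, as the most abundant and not past the test (log2-fold change -0.092, edgeR adjusted p = 0.30). The myeloid genes CD14 and CSF1R rose under hypoxia. CD14 had a mean of 1.07 CPM under normoxia and 5.83 CPM under hypoxia (log2-fold change 2.45), and CSF1R had means of 1.10 and 6.33 CPM (2.49). PTPRC, the general leukocyte marker, had 2 counts in 1 library and 0 in the others. The 5 endothelial markers in the table (of 7) summed to 1.32 to 1.70 CPM and 0.296 to 0.744 CPM and the 4 platelet markers (of 5) to 0.462 to 1.15 CPM and 0.0699 to 0.269 CPM, with 1 gene of each list tested and higher under hypoxia. The presence of such cells is not established by these markers. Whether their reads came from the carcinoma line itself was not tested.

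Of the 10 genes, 9 passed the filter on low counts and 8 of them were differentially expressed between hypoxia and normoxia (edgeR's quasi-likelihood test, adjusted p-value under 0.05), 6 higher and 2 lower under hypoxia. Among all 14255 genes tested, 77.8% were called, 39.2% as higher and 38.5% as lower, so that a call by itself does not set the members apart. The same 8 genes had no overlap between the conditions, a separation that 80.5% of the tested genes shared (40.6% higher and 39.9% lower). The 9 genes had a median log2-fold change of 0.61, against 0.023 over all tested genes, and the median size was 0.88 against 0.63. INHBA and TGFBR2 fell, whereas SMAD7, TGFBR1, LTBP1, TGFB2, TGFBI and TGFB1 rose. On the deposited FPKM, limma called the 7 members with a mean of at least 1 FPKM in the same directions, where 81% of all 10976 genes tested were called. In bulk RNA, fewer cells that express a gene and less of its RNA per cell cannot be told apart.

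**Figure D1:**
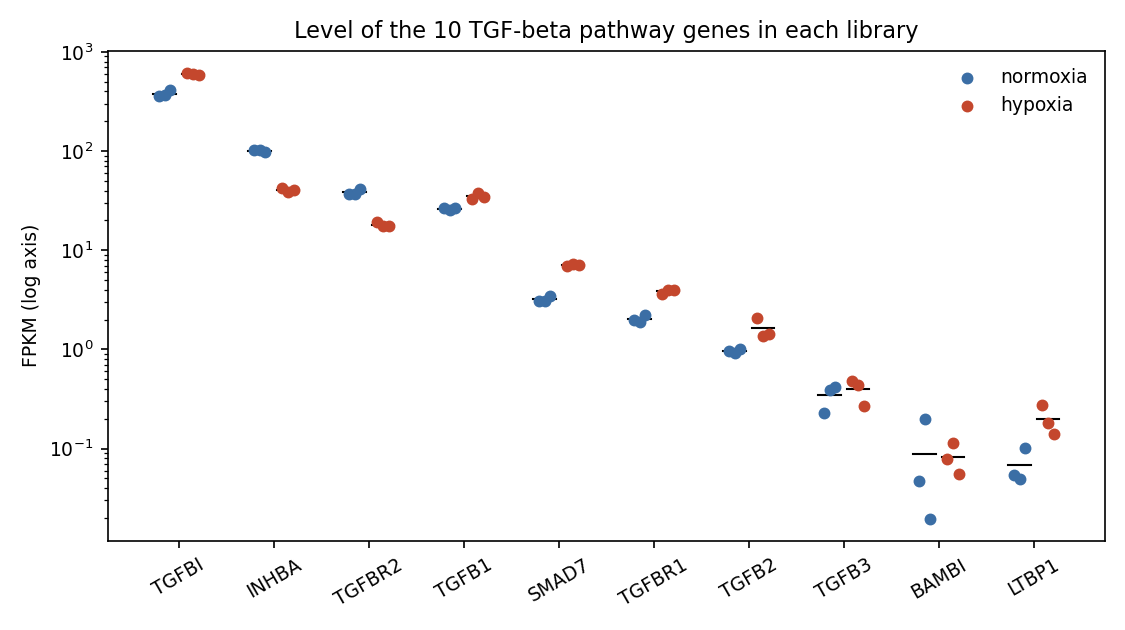
FPKM (fragments scaled to gene length and library total, log axis) of the 10 genes in each of the 6 libraries, 3 of normoxia (blue) and 3 of hypoxia (red), with the mean of each condition as a black line, ordered by the normoxia mean. The genes spread from 0.068 FPKM (LTBP1) to 381 FPKM (TGFBI) under normoxia, and the red and blue points overlap for TGFB3 and BAMBI.

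The levels of different genes were set side by side as FPKM, which divides by gene length. Under normoxia the order was TGFBI (381 ± 31.4 FPKM, SD, n = 3), INHBA (101 ± 2.06), TGFBR2 (38.3 ± 2.41), TGFB1 (26.2 ± 0.436), SMAD7 (3.20 ± 0.199), TGFBR1 (2.02 ± 0.168), TGFB2 (0.969 ± 0.0508), TGFB3 (0.345 ± 0.103), BAMBI (0.0889 ± 0.0968) and LTBP1 (0.0682 ± 0.0289). All neighbours in this order were separated in every library except BAMBI and LTBP1. Under hypoxia TGFB1 (34.8 ± 2.42 FPKM) moved above TGFBR2 (18.1 ± 0.977) and LTBP1 (0.199 ± 0.0714) above BAMBI (0.0827 ± 0.0301), and the neighbours whose libraries overlapped were TGFB3 (0.395 ± 0.110) and LTBP1. INHBA (40.4 ± 1.60 FPKM) and TGFB1 lay within 1.16-fold of each other under hypoxia, still with no overlap between their libraries.

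**Figure D2:**
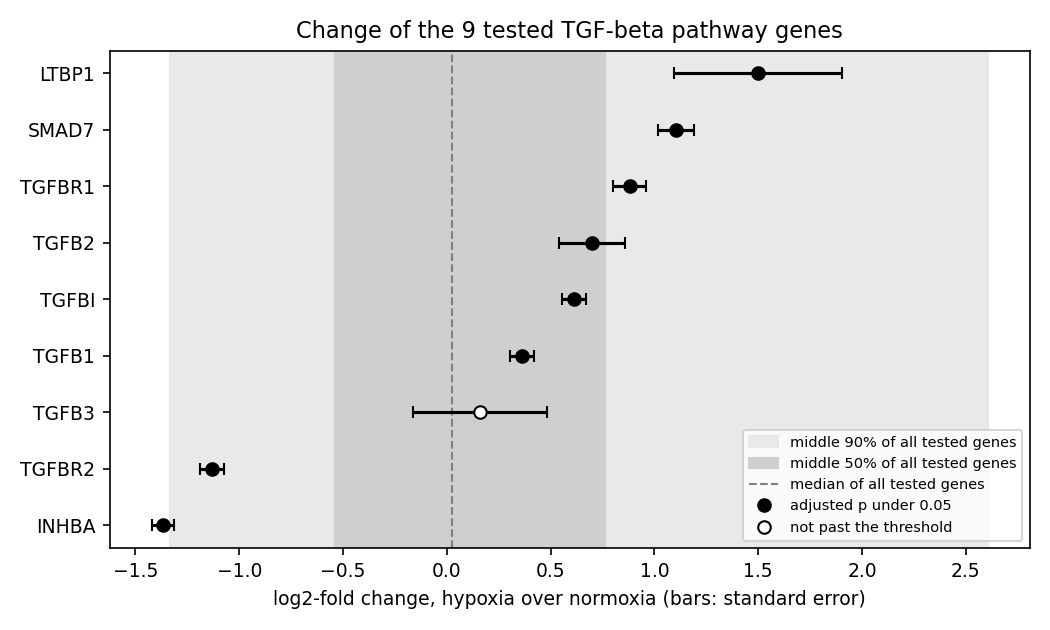
Log2-fold change (hypoxia over normoxia) of the 9 genes that passed the filter, with standard errors as bars, filled points for an adjusted p-value under 0.05, and grey bands for the middle 50% and 90% of the 14255 genes tested. LTBP1 at 1.50 and INHBA at -1.37 mark the ends, INHBA lies just beyond the lower edge of the 90% band, and TGFB3 is the open point.

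Among the ligands, TGFB1 (Entrez 7040), the most studied isoform, was measured at 90.0, 101 and 95.0 CPM in hypoxia replicates 1 to 3 and at 74.0, 74.2 and 74.5 CPM in normoxia replicates 1 to 3. Every hypoxia library was above every normoxia library, and the normoxia libraries lay within 1 CPM of each other. The increase was 1.29-fold (95% interval 1.18 to 1.40, log2-fold change 0.36, standard error 0.057, edgeR adjusted p = 1.54e-05, quasi-likelihood test), a size that 31.0% of all tested genes did not reach. TGFB1 shares 215 of its 3238 exonic bases in GENCODE v29 with HNRNPUL1 on the opposite strand, which had 428 CPM and a log2-fold change of -0.54.

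TGFB2 (Entrez 7042), an isoform whose latent form lacks the integrin-binding motif, was measured at 12.3, 7.80 and 8.54 CPM under hypoxia and at 5.78, 5.66 and 6.15 CPM under normoxia. Hypoxia replicate 1 stood above the other 2 hypoxia libraries, and the lowest hypoxia library was still above the highest normoxia library. The increase was 1.62-fold (95% interval 1.28 to 2.05, log2-fold change 0.70, standard error 0.16, adjusted p = 0.00075 by the same edgeR test). Without hypoxia replicate 1 the log2-fold change was 0.47, and the adjusted p was at most 0.0097 over the alternatives on counts and at most 0.029 over those of limma on log2(FPKM + pseudocount). TGFB2-OT1, a transcript on the same strand that shares 1371 exonic bases with TGFB2 in GENCODE v29, is not a row of the count table, so its reads cannot be told apart from those of TGFB2.

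TGFB3 (Entrez 7043), the third isoform, was near the lower end of measurable levels, with 56, 62 and 34 counts under hypoxia and 33, 45 and 49 under normoxia. The conditions overlapped, and hypoxia replicate 3 and normoxia replicate 1 were the lowest libraries. Its log2-fold change was 0.16 with a standard error of 0.32 (edgeR adjusted p = 0.66), and the 95% interval ran from 0.696-fold to 1.79-fold, so no difference was detectable at this depth.

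Of the summed FPKM of the 3 isoforms, TGFB1 made up 94.5% ± 1.52 under hypoxia and 95.2% ± 0.43 under normoxia (SD, n = 3), and TGFB2 made up 4.46% ± 1.31 and 3.52% ± 0.134. For TGFB1 the difference was smaller than the spread of the hypoxia libraries (exact two-sided permutation test, p = 0.7), and for TGFB2 the conditions overlapped (p = 0.3 by the same exact test). The TGFB2 difference of 0.94 percentage points was 0.202 without hypoxia replicate 1, 1.45 without hypoxia replicate 2 and 1.81 on CPM, which leaves gene length out. With 3 libraries against 3 this exact permutation test cannot go below p = 0.1.

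INHBA (Entrez 3624) encodes the beta A subunit, which forms activin A as a homodimer and inhibin A together with the INHA product. It showed the largest decrease of the 10 genes, from 829, 857 and 809.6 CPM under normoxia to 337, 306 and 324 CPM under hypoxia. Each condition was tight and the gap between them was wide. The decrease was 2.58-fold (95% interval 2.39 to 2.79, log2-fold change -1.37, standard error 0.053, edgeR adjusted p = 4.34e-13), larger than the change of 80.7% of all tested genes, and INHBA was at position 189 of 14255 when ordered by p. INHBA-AS1, a non-coding RNA from the same locus, had 1.64 CPM under hypoxia and 1.21 CPM under normoxia (log2-fold change 0.45, adjusted p = 0.21 by edgeR). Set against the summed FPKM of TGFB1, TGFB2 and TGFB3 in the same library, INHBA went from 3.66 times that sum under normoxia to 1.10 times under hypoxia, a log2 ratio of 1.87 ± 0.0475 against 0.13 ± 0.14 (SD, n = 3). The libraries of the conditions did not overlap (exact two-sided permutation test, p = 0.1, the smallest that 3 against 3 allows).

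Both signalling receptors changed, in opposite directions. TGFBR1 (Entrez 7046), the type I kinase, rose from 19.8, 19.7 and 22.5 CPM under normoxia to 35.6, 38.5 and 40.2 CPM under hypoxia, 1.84-fold (95% interval 1.64 to 2.07, log2-fold change 0.88, standard error 0.079, adjusted p = 1.67e-08 by edgeR). TGFBR2 (Entrez 7048), the type II kinase that binds the ligand first, fell from 249, 252 and 278 CPM to 127, 113 and 117 CPM, 2.19-fold (95% interval 2.01 to 2.39, log2-fold change -1.13, standard error 0.06, adjusted p = 1.70e-11 by edgeR). For both genes all 3 hypoxia libraries lay on one side of all 3 normoxia libraries. In FPKM, TGFBR2 was 18.9 times as abundant as TGFBR1 under normoxia and 4.69 times under hypoxia. The log2 ratio of TGFBR1 to TGFBR2 went from -4.24 ± 0.0288 to -2.23 ± 0.16 (SD, n = 3), a difference of 2.01 with no overlap (exact two-sided permutation test, p = 0.1, again the smallest possible), and hypoxia replicate 1 had the lowest ratio of its condition.

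**Figure D3:**
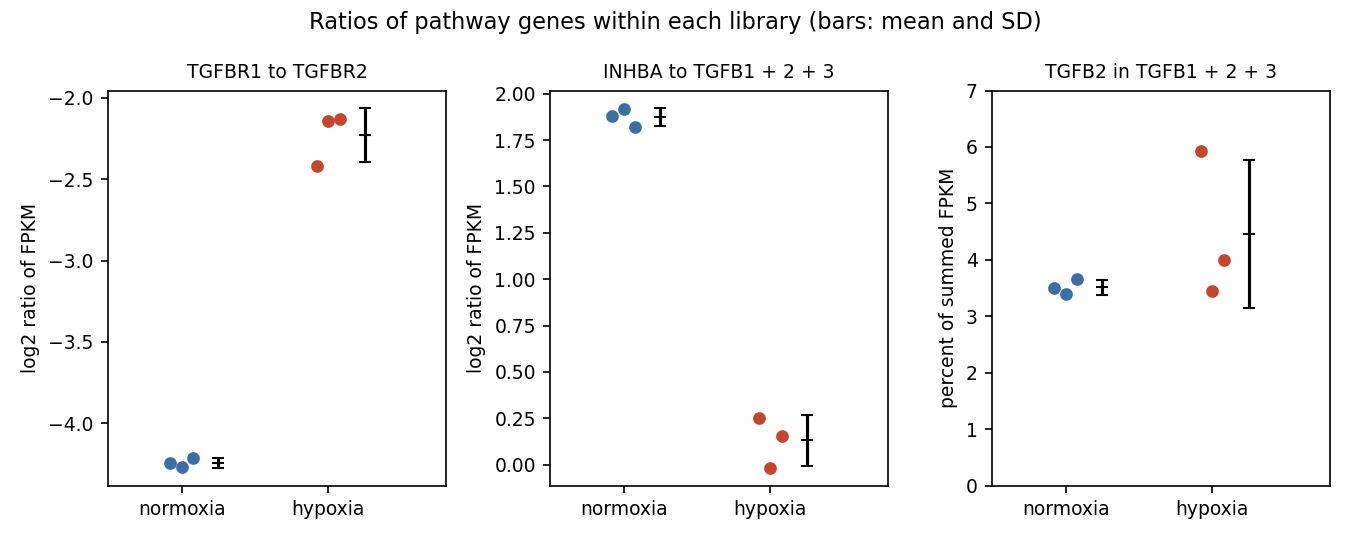
Per library, the log2 ratio of the FPKM of TGFBR1 to TGFBR2 (left), the log2 ratio of INHBA to the summed FPKM of TGFB1, TGFB2 and TGFB3 (middle) and the percent of that sum that is TGFB2 (right), for 3 normoxia (blue) and 3 hypoxia (red) libraries with mean and SD as black bars. The first ratio is about 2.01 higher and the second 1.74 lower under hypoxia on the log2 scale, each without overlap, while the TGFB2 shares overlap and 1 hypoxia library stands at 5.93%.

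BAMBI (Entrez 25805), a pseudoreceptor without a kinase domain that blocks the type I receptor, had 4, 7 and 3 counts under hypoxia and 3, 10 and 1 under normoxia. It did not pass the filter on low counts, the conditions overlapped, and no difference was detectable at this depth (exact two-sided permutation test on CPM, p = 1).

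LTBP1 (Entrez 4052), which tethers latent TGF-beta to the matrix, had 58, 45 and 31 counts under hypoxia and 14, 10 and 21 under normoxia. The lowest hypoxia library, at 0.955 CPM, was above the highest normoxia library, at 0.71 CPM. The increase was 2.83-fold with a wide 95% interval of 1.56 to 5.12 (log2-fold change 1.50, standard error 0.41, adjusted p = 0.0029 by edgeR), and the adjusted p was at most 0.031 over the alternatives on counts. Even under hypoxia LTBP1 stayed at 0.199 FPKM, while its relatives were far more abundant: LTBP2 had 32.6 FPKM and LTBP3 had 54.1 FPKM under hypoxia. In GENCODE v29 LTBP1 shares 249 exonic bases with AC019127.1 on the opposite strand, which is not a row of the count table.

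SMAD7 (Entrez 4092), an inhibitory SMAD that is itself induced by the pathway and recruits ubiquitin ligases to the receptor, was measured at 25.4, 25.8 and 26.2 CPM under hypoxia and at 11.4, 11.8 and 12.8 CPM under normoxia. The hypoxia libraries were nearly equal, and all lay above normoxia. The increase was 2.15-fold (95% interval 1.89 to 2.44, log2-fold change 1.10, standard error 0.087, adjusted p = 2.80e-09 by edgeR).

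TGFBI (Entrez 7045), a secreted matrix protein named for its induction by TGF-beta, was the most abundant of the 10 genes in every library. It had 1642, 1575 and 1594 CPM under hypoxia and 971, 1033 and 1144 CPM under normoxia, again without overlap. The increase was 1.53-fold (95% interval 1.40 to 1.66, log2-fold change 0.61, standard error 0.059, adjusted p = 3.86e-08 by edgeR).

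The promoters of the 10 genes were read from RefSeq (GRCh38.p14, windows from 250 bases before to 50 bases after the annotated start, all 10 genes matched). The first window listed for each gene was searched on both strands for ACGTG and GCGTG, the core letters of the hypoxia response element, and for CAGAC, the letters of a SMAD box. ACGTG or GCGTG was present in 7 of the 10 windows, against 48.4% of the 27305 genes in the RefSeq table, and CAGAC in 7 of 10, against 45.0%. The first windows of INHBA, SMAD7 and TGFBI held neither ACGTG nor GCGTG, while those of TGFB2 and TGFB3 each held ACGTG on both strands within the palindrome CACGTG. Among the genes that changed and had ACGTG or GCGTG, the 3 with the largest changes are shown, LTBP1 and TGFBR1, which rose, and TGFBR2, which fell, so that the letters can be seen in genes of both directions. Capitals mark every match to these 3 motifs on either strand, and a match to ACGTG and one to CAGAC overlap in LTBP1.
LTBP1 promoter, chr2:32946703-32947002, plus strand: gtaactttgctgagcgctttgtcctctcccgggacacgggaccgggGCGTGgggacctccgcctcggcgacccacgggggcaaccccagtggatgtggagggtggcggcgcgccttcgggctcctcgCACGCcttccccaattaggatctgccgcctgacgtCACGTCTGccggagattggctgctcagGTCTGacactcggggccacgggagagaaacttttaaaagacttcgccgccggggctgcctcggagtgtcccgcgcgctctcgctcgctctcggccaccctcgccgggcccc
TGFBR1 promoter, chr9:99104863-99105162, plus strand: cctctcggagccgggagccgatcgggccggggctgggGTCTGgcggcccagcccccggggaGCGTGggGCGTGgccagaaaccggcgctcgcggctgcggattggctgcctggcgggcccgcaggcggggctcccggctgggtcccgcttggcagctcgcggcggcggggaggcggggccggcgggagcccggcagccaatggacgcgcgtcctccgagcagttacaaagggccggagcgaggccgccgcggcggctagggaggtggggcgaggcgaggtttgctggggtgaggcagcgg
TGFBR2 promoter, chr3:30606106-30606405, plus strand: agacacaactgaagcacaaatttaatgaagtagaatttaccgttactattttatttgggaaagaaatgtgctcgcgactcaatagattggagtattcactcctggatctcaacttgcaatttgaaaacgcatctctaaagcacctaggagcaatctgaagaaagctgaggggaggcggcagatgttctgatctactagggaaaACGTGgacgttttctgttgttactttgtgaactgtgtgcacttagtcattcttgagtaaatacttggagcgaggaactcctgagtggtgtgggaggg
LTBP1 held 1 ACGTG, 2 GCGTG and 2 CAGAC, TGFBR1 held 2 GCGTG and 1 CAGAC, and TGFBR2 held 1 ACGTG, 47 bases before the start. TGFBR1 has 8 listed windows, of which 5 held ACGTG or GCGTG, and LTBP1 has 3, of which 1 did. SMAD7 also has 3, of which 1 did, though not the first. A match of 5 letters describes the sequence only and shows no binding.

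For the 3 genes with the largest changes, the genes with the most similar profile were sought by the distance between log2 CPM values over the 6 libraries, each centred on its own mean. For INHBA they were SNRPD1 (distance 0.028), BIRC5 (0.041) and RAB35 (0.043), and for TGFBR2 they were ESCO2 (0.077), MKI67 (0.089) and BUB1B (0.10). For LTBP1, whose few counts make its profile noisy, they were LOC107983998 (0.33), AMN (0.35) and LINC01410 (0.43). With 6 libraries in 2 conditions, genes with a like fold change and little noise lie close by this measure.

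The rest of the pathway was read from 8 lists of 124 genes in all, of which 117 were in the table and 101 were tested. Of these, 48 were higher, 30 lower and 23 did not pass (edgeR's quasi-likelihood test), 77.2% called against 77.8% of all tested genes, with a median log2-fold change of 0.14. Among all tested genes, 39.2% were called higher and 38.5% lower, with a median of 0.023, the comparison for each list below.

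**Figure D4:**
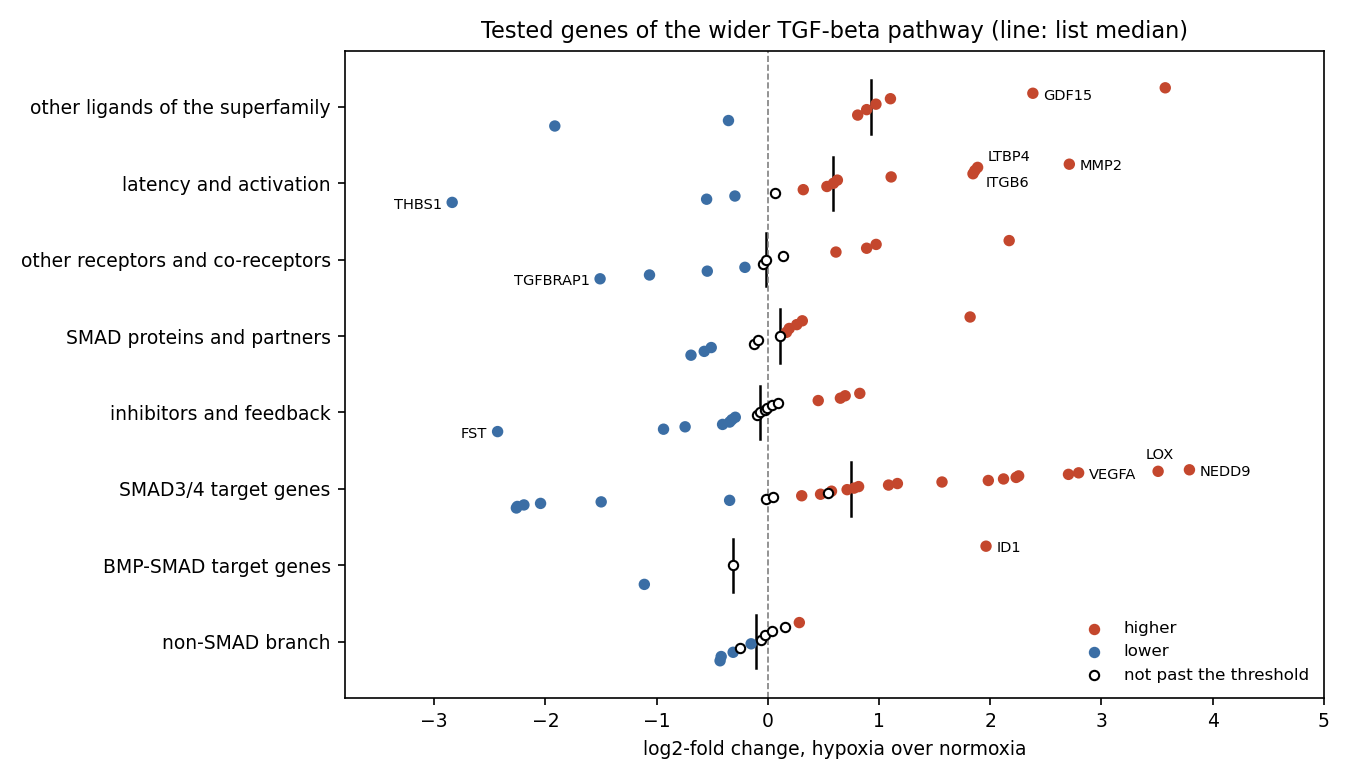
Log2-fold change (hypoxia over normoxia) of 99 of the 101 tested genes of the 8 lists, 1 point per gene, red for higher and blue for lower at an adjusted p-value under 0.05 and open for genes that did not pass, with the median of all tested genes of a list as a vertical line. NEDD9 at 3.79 and THBS1 at -2.84 are the ends of the plot, and the non-SMAD branch stays closest to 0.

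Of the 12 other ligands and processing factors in the table, 8 were tested, 6 rising and 2 falling. Among all tested genes, 77.8% were called, 39.2% as higher and 38.5% as lower. The largest change was at a low level and is named after its value was seen: INHA, the inhibin alpha subunit, rose from 0.188, 0.105 and 0.304 CPM under normoxia to 2.19, 2.37 and 2.68 CPM under hypoxia (log2-fold change 3.57, standard error 0.38), opposite in direction to INHBA. INHA had only 7, 3 and 9 counts under normoxia, so the size of its rise is uncertain. BMP6 and GDF11, also named after their values were seen, fell by 1.92 and 0.35 on the log2 scale. BMP6 had only 3, 5 and 2 counts under hypoxia and 16, 11 and 10 under normoxia. Levels of 3 or fewer counts are not measurable here, so the size of its fall is uncertain. GDF15, a stress-induced cytokine of the superfamily, rose from 19.1 ± 1.07 to 99.98 ± 19.4 CPM (SD, n = 3), by 2.38 on the log2 scale (standard error 0.11). BMP2 rose by 0.89 and BMP8B by 0.97 on the log2 scale. BMP1, which despite its name is a metalloprotease that cleaves procollagen and latent TGF-beta binding proteins, rose by 1.10 (standard error 0.068), from 47.7 to 102 CPM.

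Of the genes for latency and activation, 13 were tested, 9 rising, 3 falling and 1, MMP14 (log2-fold change 0.061, adjusted p = 0.33 by edgeR), not passing. That is 92.3% called, against 77.8% of all tested genes (39.2% higher, 38.5% lower). THBS1, thrombospondin 1, which can activate latent TGF-beta, fell from 2141 ± 302 to 299 ± 52.8 CPM (log2-fold change -2.84, standard error 0.11). ITGB6, the partner of ITGAV in an integrin that frees TGF-beta1 in epithelia, rose from 20.5 ± 4.40 to 74.6 ± 2.12 CPM (log2-fold change 1.86, standard error 0.10). LTBP4 rose by 1.89 and MMP2, a gelatinase, by 2.71. LTBP2 (0.59) and LTBP3 (1.85), named after their values were seen, also rose, so that all 4 latent TGF-beta binding protein genes were higher under hypoxia (adjusted p-values under 0.05 by edgeR), as were 39.2% of all tested genes. The other genes that fell, likewise named after their values were seen, were FURIN (-0.55), a protease that processes the TGF-beta precursor, and ITGB8 (-0.30), another partner of ITGAV. ITGB8 overlapped between the conditions (30.5, 26.9 and 25.3 CPM under hypoxia, 30.3, 29.9 and 41.3 CPM under normoxia). Its edgeR adjusted p of 0.019 was the largest of the 3. This list had 2 falling genes in place of 3 without hypoxia replicate 2, without hypoxia replicate 3 or without normoxia replicate 3. The same held with at least 10 counts in every library.

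Of the other receptors and co-receptors, 11 were tested, 4 rising, 4 falling and 3 not passing (72.7% called against 77.8% of all tested genes). TGFBRAP1, a receptor-associated protein, fell by 1.51 on the log2 scale (standard error 0.061), from 79.96 to 28.1 CPM. The type II receptors BMPR2 and ACVR2B rose by 0.97 and 0.89, and CD109, a co-receptor that dampens the pathway, rose by 0.61. Named after their values were seen, ACVR1C, an activin and Nodal type I receptor, rose by 2.17 (0.114 to 0.533 CPM), and TGFBR3, betaglycan, fell by 1.06 (2.36 to 1.14 CPM). ACVR1C had only 17, 17 and 19 counts under hypoxia and 5, 4 and 2 under normoxia, so the size of its rise is uncertain (standard error 0.53). The activin type I receptor ACVR1B had a log2-fold change of 0.14 (adjusted p = 0.069 by edgeR) and ACVR1 one of -0.016 (adjusted p = 0.91 by edgeR).

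Of the SMADs and their partners, 11 were tested, 5 rising, 3 falling and 3 not passing (72.7% called against 77.8% of all tested genes). SMAD6, an inhibitory SMAD named after its value was seen, rose by 1.82 on the log2 scale from 0.54 to 1.94 CPM. SMAD3 rose from 422 to 524 CPM, by 0.31 on the log2 scale (standard error 0.053), while SMAD2 (0.11, adjusted p = 0.082 by edgeR) and SMAD5 (-0.12, adjusted p = 0.064) did not pass. SMAD1, a BMP mediator, fell by 0.69, HGS, which helps present SMADs to receptors at endosomes, by 0.57, and CREBBP, a co-activator, by 0.51.

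Of the inhibitors and feedback genes, 17 were tested, 4 rising, 7 falling and 6 not passing (64.7% called against 77.8% of all tested genes). FST, follistatin, which binds and neutralizes activins, fell from 8.78 ± 1.11 to 1.63 ± 0.164 CPM (log2-fold change -2.43, standard error 0.17). FSTL3, another activin-binding follistatin, named after its value was seen, rose from 34.2 to 46.9 CPM (log2-fold change 0.45). STRAP, which stabilizes the association of SMAD7 with the receptor, fell by 0.94 on the log2 scale, and the ubiquitin ligase SMURF2, a partner of SMAD7, by 0.74. PMEPA1, a TGF-beta-induced inhibitor, rose by 0.65 (standard error 0.052), from 430 to 676 CPM, and NOG, a BMP antagonist, by 0.83. The co-repressors SKI (log2-fold change 0.09, adjusted p = 0.12) and TGIF2 (-0.0062, adjusted p = 0.94) did not pass (edgeR).

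Of the SMAD3/4 target genes, 28 were tested, of which 18 rose, 6 fell and 4 did not pass, with a median log2-fold change of 0.74. That is 85.7% called, against 77.8% of all tested genes (39.2% higher, 38.5% lower, median 0.023). NEDD9, a scaffold of cell migration, rose from 6.59 to 90.0 CPM, by 3.79 on the log2 scale (standard error 0.17, edgeR adjusted p = 2.92e-12), LOX, lysyl oxidase, by 3.51 and VEGFA by 2.80. LOX and VEGFA are also known as direct targets of the hypoxia-inducible factors. The 6 genes that fell, named after their values were seen, were CCN2 (-2.26), PTHLH (-2.25), TAGLN (-2.19), CCN1 (-2.04), HMGA2 (-1.50) and CDH2 (-0.34). TPM1, a tropomyosin gene, had a log2-fold change of 0.046 and did not pass (edgeR adjusted p = 0.49). COL1A1, a collagen gene of this list, also named after its value was seen, had a log2-fold change of 2.26. It is also the most abundant fibroblast marker, and whether its reads came from the carcinoma line itself was not tested.

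Of the BMP target genes, 3 were tested: ID1 rose from 32.4 ± 10.2 to 126 ± 19.2 CPM (log2-fold change 1.96, standard error 0.15), ID3 fell by 1.11 (standard error 0.27) from 3.70 CPM, and MSX2 did not pass (-0.31, adjusted p = 0.29 by edgeR). Of the 10 genes of the non-SMAD branch, 1 rose, 4 fell and 5 did not pass (50% called against 77.8% of all tested genes). TAB2 rose by 0.28 on the log2 scale, while DAXX fell by 0.43, TRAF4 by 0.42 and MAPK14 (p38 alpha) by 0.31. RHOA, the most abundant of them (-0.065, adjusted p = 0.26), and the kinase MAP3K7 (0.036, adjusted p = 0.59) did not pass (edgeR).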

How the data were processed

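Whole-number counts of reads per gene and FPKM of the same genes were deposited by the authors, without pooling of replicates. The aligner, counting tool, annotation and use of strand are not given in the sources used here, so opposite-strand genes could share reads. The submitters' processing notes list the mouse builds GRCm38 and mm10, although the table carries human symbols and Entrez numbers, and no coordinates were taken from it. The deposited FPKM of all 10 genes followed from their counts, 1 gene length and the library total within 1%.

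Counts were tested with edgeR 4.0.16 (R 4.3.3; TMM, filterByExpr, quasi-likelihood F test, condition as the only term), with Benjamini-Hochberg adjustment over 14255 genes at 0.05. The standard error is the log2-fold change divided by the square root of F, and the 95% intervals use the total degrees of freedom of that test. Log2 CPM used a prior count of 2. FPKM were tested with limma 3.58.1 on log2(FPKM + 1) where the mean FPKM was 1 or more. DESeq2 1.42.0 was an alternative. The tests were run on simulated data beforehand. The planned comparison of ligand protein sequences was not run. Alternatives were other size factors, other filters, the pseudocount (1, or 0.1), the replicate block and leaving out each library. All pairs of replicates differed beyond sampling noise (5.11 to 11.5 chi-square units per gene). The depth leaves genes with 3 or fewer counts without a measurable level.

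The 10 genes and the lists were chosen with earlier results of these data known. All 10 are named, and from each list the up to 4 largest changes among genes called, without overlap and with a mean log2 CPM of at least 1, the gene with the highest mean CPM, and up to 2 genes that did not pass with over 10 CPM. A further 2 genes of the target list are counted and not reported here.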

Additional observations from a re-analysis of the deposited data

How the results depend on the processing

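All 8 calls kept their direction and an adjusted p-value under 0.05 with DESeq2's size factors in edgeR, by the DESeq2 Wald test, without a filter, with at least 10 counts in every library, with the replicate number as a block and with each library left out, so that 6 members were higher and 2 lower in each. For the 7 members above the FPKM minimum, limma on log2(FPKM + 1) gave the same directions, with a pseudocount of 0.1 too. TGFB3, which was not called, turned to -0.0011 without hypoxia replicate 1 and ranged from -0.10 to 0.36 with 1 library left out. The difference in the TGFB1 share, hypoxia minus normoxia, ranged from -1.24 to 0.12 percentage points with 1 library left out, turned to 0.12 without hypoxia replicate 1 and was -1.56 on CPM in place of FPKM, and that in the TGFB2 share ranged from 0.202 to 1.45 with 1 library left out and was 1.81 on CPM. The cause of these was not tested. Same-numbered libraries did not deviate together (correlations 0.018, -0.069 and 0.0012, and hypoxia replicate 1 was nearest to normoxia replicate 2), and the replicate block gave 10875 differentially expressed genes against 11090. The mean difference within same-numbered pairs equals the difference between the condition means by construction, so its size is no separate check. It was 2.01 for the log2 ratio of TGFBR1 to TGFBR2 and -1.74 for that of INHBA to the summed ligands. For the TGFB2 share it was 0.94 percentage points. The exact test within pairs gave p = 0.25 for each of them. Dropping the filter moved the log2-fold changes of shared genes by a median of -0.041 and the stricter filter by 0.077, so smaller changes carry no direction. The stricter filter also left 1 in place of 2 falling ligands in the wider list, and the BMP targets had 2 rising genes in place of 1 without hypoxia replicate 2 or without normoxia replicate 3. BAMBI, TGFB3 and LTBP1 had few counts, and the part of depth in their spread was not tested.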

Other observations

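The deposited annotation assigns 97 genes to the KEGG TGF-beta signaling pathway, a list chosen after the data had been seen. Outside the 10 genes above, 66 of its members were tested, of which 21 were higher, 30 lower and 15 did not pass (edgeR's quasi-likelihood test), with a median log2-fold change of -0.10 and 77.3% called, against a median of 0.023 and 77.8% called (39.2% higher, 38.5% lower) among all tested genes. MYC, a gene that TGF-beta is known to repress, fell from 250.3, 256 and 261 CPM under normoxia to 42.8, 28.2 and 33.6 CPM under hypoxia, a log2-fold change of -2.88 (standard error 0.10). RGMB, a BMP co-receptor, fell by 2.35 (standard error 0.11), TNF by 1.52 and PPP2R1B, a phosphatase scaffold subunit, by 1.35. NEO1, a receptor for repulsive guidance molecules such as RGMB, rose by 1.88 (standard error 0.34) from 0.703 to 2.59 CPM.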
